A study of Homo sapiens with 4 samples.

Results

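The genes examined were 37 enzymes and enzyme partners that make, interconvert and recycle purine, pyrimidine and deoxynucleotides, measured by RNA-Seq in SK-MEL-28 cells, an established human melanoma cell line. They were chosen by name from a list of the pathway, by a rule that used no values, although earlier results of these data were known. All 37 were found among the 25268 gene symbols of the deposited table, each on 1 row, and all 37 were among the 11147 genes whose mean over the libraries reached 1 FPKM. FPKM counts fragments for each kilobase of transcript and scales them to the library's mapped total, so levels of different genes can be set side by side, while amounts per cell were not measured. The 4 libraries came from cells with the empty pTRIPZ lentiviral vector (vector line) and from cells with a MYC gene under a Tet-inducible promoter (MYC-inducible line, shortened to MYC line), each kept without doxycycline (Dox) or given Dox for 54 h. Both lines were grown in medium with G418, the drug used to select infected cells, and nothing in the sources says whether either line is a clone. Each condition is 1 library, so differences could not be set against replicate error and are given as values without a test.

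Cells build purines by assembling the ring stepwise on an activated ribose, phosphoribosyl pyrophosphate (PRPP), until inosine monophosphate (IMP) is reached, from which AMP and GMP branch off. The pyrimidine ring is made first and then joined to PRPP to give UMP, from which CTP is formed. Kinases carry the monophosphates to triphosphates, ribonucleotide reductase turns ribonucleotides into deoxynucleotides for DNA synthesis, thymidylate synthase adds the DNA-specific pyrimidine, and salvage enzymes reclaim free bases and nucleosides. MYC is a transcription factor known to bind with MAX at the E-box CACGTG, and genes of nucleotide synthesis are among its textbook targets.

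The labels were checked against MYC and marker genes. The level of MYC was 58.3 and 54.8 FPKM in the vector line and 76.5 and 87.1 FPKM in the MYC line, in each case first without and then with Dox. MYC was therefore higher in both libraries of the MYC line, and its log2 change with Dox there was 0.19. Values per symbol do not separate the introduced MYC from the cell's own, and it is not known here whether the table counts the introduced copy in full, so 0.19 does not measure how far it was induced. All 8 melanocyte lineage genes on the marker list were present and had summed levels of 8578, 8467, 8433 and 4666 FPKM in the same order of libraries. Of these, PMEL, MLANA, TYR, TYRP1 and S100B were at least 1.5-fold lower with Dox in the MYC line. The 7 markers of other cell types summed to between 0.744 and 0.950 FPKM in 3 libraries and to 2.86 FPKM in the MYC line with Dox, where EPCAM had 2.71 FPKM, up from 0.726 FPKM without Dox, and KRT5 and ALB were listed at 0 throughout. Their part in the results below was not tested. In bulk RNA, fewer cells of a type and less RNA per cell cannot be told apart. The approximate depth, read from the value of 1 fragment in genes of very low level, was 35400000 to 42600000 fragments per library.

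The sequence before the genes was examined for the E-box CACGTG. RefSeq promoter windows (GRCh38.p14, 250 bases before to 50 bases after an annotated start) were matched for 34 of the 37 members, and ADSL, IMPDH2 and RRM2B had no entry. Both strands were searched for CACGTG, which reads the same on each. It was found for 6 of the 34 matched members (17.6%) and for 8.77% of all 27305 symbols. Counted by window, it was in 10.9% of the members' 55 windows and in 7.26% of all 35116. All symbols include genes that did not reach a mean of 1 FPKM here, unlike the members. Shares among genes that reached it are higher and are given below. The sites are shown because they carry the motif that MYC is known to bind, with the E-box in capitals, each on the strand of its gene and with 12 bases on either side where the window reaches that far:

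PPAT, chr4:56435780-56435809, minus strand: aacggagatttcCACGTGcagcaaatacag

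ATIC, chr2:215312001-215312030, plus strand: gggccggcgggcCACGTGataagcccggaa

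ATIC, chr2:215312076-215312105, plus strand: ctcctacctgcgCACGTGgtgccgccgctg

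DHODH, chr16:72008573-72008602, plus strand: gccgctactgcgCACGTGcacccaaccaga

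NME1, chr17:51153581-51153608, plus strand: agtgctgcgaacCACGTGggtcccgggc

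DCK, chr4:70993521-70993550, plus strand: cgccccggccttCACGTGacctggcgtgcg

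Counted from the annotated start, the E-box began at position -182 of PPAT, -46 and 30 of ATIC, -159 of DHODH, 35 of NME1 and -116 of DCK. PPAT and PAICS lie head to head, and the site listed for PPAT is also the PAICS site, since on the plus strand it begins at position 41 of PAICS. The stretch of 136 bases between the starts of PPAT and PAICS, chr4:56435616-56435751, plus strand, has a G and C content of 75.0% and no E-box, and it is shown because both genes are transcribed away from it:

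Between PPAT and PAICS: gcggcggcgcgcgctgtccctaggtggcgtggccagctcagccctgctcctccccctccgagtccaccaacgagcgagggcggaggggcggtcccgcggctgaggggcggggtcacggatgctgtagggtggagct

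Of the 9 matched members that rose with Dox in the MYC line, by 1.5-fold or more, 4 held the E-box in a window, at 3 sites because PPAT and PAICS share theirs, as did 2 of the 25 other matched members. Among all tested genes with a window, 22.9% of the 462 that rose as much held it and 12.7% of the 7919 others. The exact letters in these windows say nothing of binding, and their part in the changes was not tested.

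With Dox, 10 of the 37 members rose in the MYC line by 1.5-fold or more and none fell by that much. They were PPAT, GART, PFAS and PAICS of the purine ring, IMPDH1 and IMPDH2 of the branch to GMP, DHODH and UMPS of pyrimidine synthesis, the nucleoside diphosphate kinase NME1 and the uridine-cytidine kinase UCK2. The same rise was seen in 5.90% of all 11147 genes, against 27.0% of the members, and a fall of that size in 8.85% of all genes, against none of the members. Changes are given on the scale log2(FPKM + 0.1), on which low genes appear to change less than they did. The median log2 change was 0.23 over the members and -0.03 over all genes. In the vector line, where Dox acts without the inducible gene, 0 of the 37 members changed 1.5-fold in either direction, beside 1.15% of all genes, and the members' changes lay between -0.12 and 0.16. The lines without Dox also differed by less than 1.5-fold in all 37 members, beside 0.879% of all genes that differed by more.

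**Figure D1:**
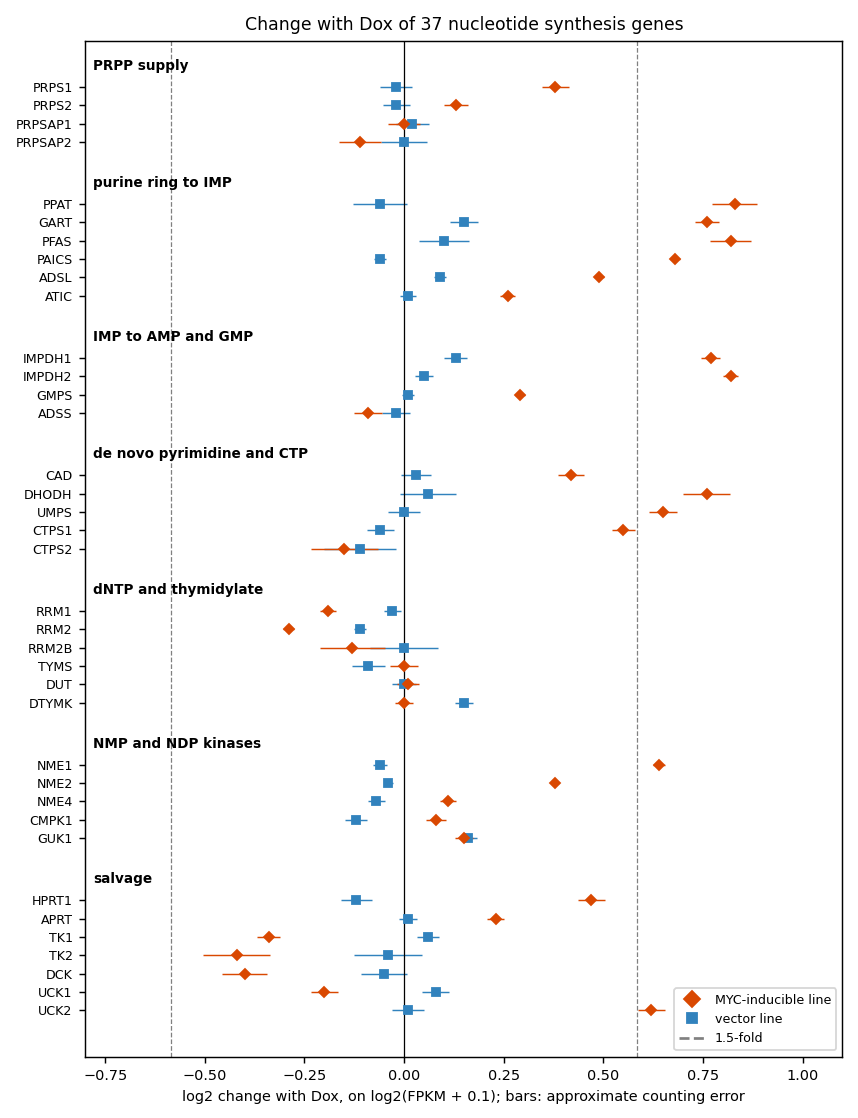
Log2 change, Dox against no Dox, of each of the 37 members (x axis, on the log2(FPKM + 0.1) scale) in the MYC line (orange diamonds) and the vector line (blue squares), by enzymatic step; bars are approximate counting errors from fragments, not replicate errors, and dashed lines mark 1.5-fold. The 10 diamonds beyond the right dashed line belong to purine ring, GMP, pyrimidine, kinase and salvage genes, while the vector squares stay between -0.12 and 0.16.

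The change with Dox in the MYC line minus that in the vector line passed 1.5-fold upward in 12 members (32.4%, beside 5.85% of all genes) and downward in 0 (beside 9.72%). These were the 10 genes above together with CTPS1 and HPRT1. Compared directly under Dox, the MYC line was at least 1.5-fold above the vector line in 11 members, beside 6.50% of all genes, and at least 1.5-fold lower than the vector line in none, beside 8.62%. UMPS, at 0.56 on the log2 scale, fell short in that comparison, and CTPS1 and HPRT1 were again past it. These comparisons share the same Dox library, so they are not independent of each other.

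The 3 libraries other than the MYC line with Dox give a further yardstick. Their log2 range had a median of 0.09 over the members and was at most 0.35, for TYMS. The MYC line with Dox was the highest of the 4 libraries in 24 members (64.9%, beside 40.2% of all genes) and the lowest in 10 (27.0%, beside 42.9%). It stood above the other 3 by more than their own range in 20 members (54.1%, beside 26.9% of all genes) and below by more than that range in 5 (13.5%, beside 28.6%). Those 5 were ADSS, TK1, TK2, DCK and UCK1.

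**Figure D2:**
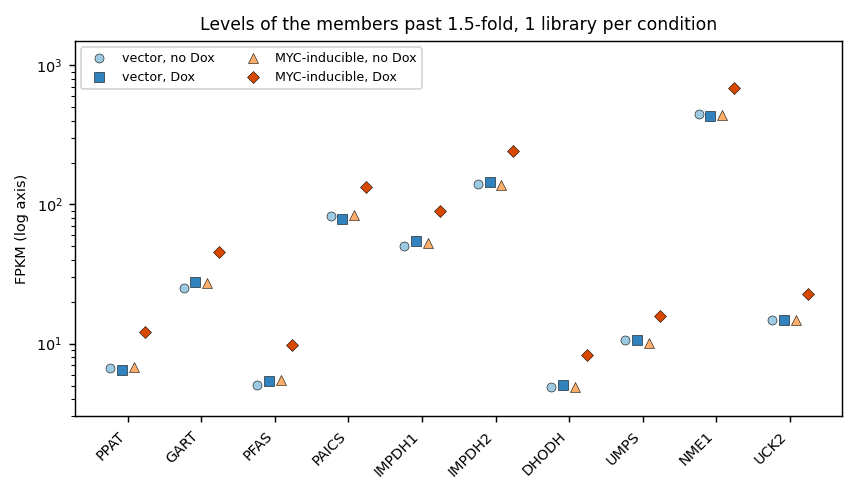
FPKM on a log axis of the 10 members that rose at least 1.5-fold, with 1 point per library. For each gene the MYC library with Dox (orange diamond) is above the other 3, which lie close together.

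PRPP synthetases, which make the activated ribose that purine, pyrimidine and salvage reactions all draw on, were not among the genes past 1.5-fold. PRPS1, a catalytic subunit, had 35.0 and 34.4 FPKM in the vector line without and with Dox and 35.9 and 46.8 FPKM in the MYC line, where its log2 change was 0.38. PRPS2, the other widely expressed catalytic subunit, had 39.4, 38.9, 44.0 and 48.0 FPKM in that order of libraries, which is kept below. Its change in the MYC line, 0.13, was smaller than the range of 0.18 over the other 3 libraries. The associated proteins PRPSAP1 and PRPSAP2, known as regulatory partners of the synthetases, had 17.8 to 19.0 FPKM and 17.2 to 19.7 FPKM over the 4 libraries, with log2 changes of 0.00 and -0.11. The median of the 4 genes was 0.06.

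The enzymes that assemble the purine ring had the highest median of the 7 steps, 0.72 over 6 genes, beside -0.03 over all genes. All 6 were highest in the MYC line with Dox, and 4 rose at least 1.5-fold. Their summed level was 372, 381 and 385 FPKM in those 3 libraries and 543 FPKM in the MYC line with Dox.

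PPAT, the amidotransferase that commits PRPP to purines, had 6.70, 6.43, 6.77 and 12.1 FPKM. The first 3 values lay within a log2 range of 0.07, and the change with Dox in the MYC line was 0.83 (approximate counting error 0.0560). Such errors describe how fragments were sampled and leave out variation among cultures. GART, a protein that carries several activities of the pathway, had 25.0, 27.7, 27.1 and 45.9 FPKM, a log2 change of 0.76 beside 0.15 in the vector line. PFAS, the amidotransferase that follows, had 5.03, 5.38, 5.50 and 9.79 FPKM, a log2 change of 0.82 (counting error 0.0515).

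PAICS, a later enzyme of the ring and the head-to-head neighbour of PPAT, had 82.2, 78.9, 83.8 and 134 FPKM. Its log2 change was 0.68, close to that of PPAT, although its level was far higher in each library. ADSL, which acts both on the ring pathway and on the branch to AMP, had 125, 134, 129 and 182 FPKM. That is a log2 change of 0.49, below 1.5-fold but outside the range of the other 3 libraries. ATIC, which closes the ring, had 128, 129, 133 and 159 FPKM and a log2 change of 0.26. Along the pathway, the enzymes from PPAT to PAICS thus had changes of 0.68 to 0.83 and the later ADSL and ATIC had 0.49 and 0.26, and this order was not tested.

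Beyond IMP, the enzymes IMPDH1, IMPDH2 and GMPS of the branch to GMP were higher with Dox in the MYC line. On the branch to AMP, ADSL (0.49, as above) was higher and ADSS was slightly lower. The difference between the branches was not tested. IMPDH2, the main isoform of the dehydrogenase that commits IMP to guanine nucleotides, had 140, 145, 138 and 243 FPKM, a log2 change of 0.82 (counting error 0.0186). IMPDH1, the other isoform, had 49.9, 54.6, 52.8 and 89.8 FPKM, a log2 change of 0.77. The ratio of IMPDH2 to IMPDH1 was 2.81, 2.66, 2.61 and 2.70 in the 4 libraries, so the isoforms kept nearly the same proportion. GMPS, which aminates XMP to GMP, had 63.1, 63.7, 64.6 and 78.9 FPKM, a log2 change of 0.29, and was tightly grouped in the other 3 libraries. ADSS, the synthetase of the branch to AMP, had 34.0, 33.7, 33.1 and 31.1 FPKM. Its lowest value was that of the MYC line with Dox, at a log2 change of -0.09.

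De novo pyrimidine synthesis had a median of 0.55 over 5 genes. CAD, the multifunctional protein that catalyses the opening steps and is a well-known MYC target, had 11.4, 11.6, 11.3 and 15.2 FPKM. The values of the other 3 libraries were within a log2 range of 0.03, and the change with Dox in the MYC line was 0.42, which is below 1.5-fold. DHODH, the dehydrogenase of the inner mitochondrial membrane, had 4.86, 5.07, 4.89 and 8.34 FPKM, a log2 change of 0.76 (counting error 0.0590). UMPS, which completes UMP, had 10.7, 10.7, 10.1 and 15.8 FPKM, a log2 change of 0.65.

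The CTP synthases, which aminate UTP, went apart. CTPS1 had 35.0, 33.5, 35.0 and 51.2 FPKM, a log2 change of 0.55 in the MYC line and of -0.06 in the vector line. CTPS2 had 3.63, 3.35, 3.84 and 3.45 FPKM, a log2 change of -0.15 (counting error 0.0840), and its value in the MYC line with Dox lay between those of the vector libraries. The ratio of CTPS1 to CTPS2 was 9.63, 10.0 and 9.12 in the other 3 libraries and 14.8 in the MYC line with Dox.

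Genes of deoxynucleotide and thymidylate synthesis did not share these rises. None of the 6 changed 1.5-fold, and their median was -0.06, beside -0.03 over all genes. Among all genes 5.90% rose and 8.85% fell that far, so none of 6 is near those shares. RRM1, the large subunit of ribonucleotide reductase, had 78.0, 76.4, 84.5 and 74.2 FPKM, and RRM2, the small subunit made in S phase, had 150, 139, 163 and 134 FPKM. Both were highest in the MYC line without Dox and lowest in the same line with Dox, with log2 changes of -0.19 and -0.29. Against the vector line with Dox the differences were -0.04 and -0.06, smaller than the range over the other libraries. RRM2B, the alternative small subunit, had 3.10 to 3.39 FPKM over the 4 libraries. The ratio of RRM2 to RRM2B was 42.9 to 48.1 and that of RRM2 to RRM1 was 1.80 to 1.93.

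TYMS, which methylates dUMP to dTMP, had 41.8, 39.3, 50.0 and 50.0 FPKM. Both libraries of the MYC line were above both of the vector line, and its log2 change with Dox was 0.00 in the former. DUT, which removes dUTP and supplies dUMP, followed the same pattern at 56.1, 56.2, 64.2 and 64.8 FPKM, and its log2 change of 0.01 became -0.04 when libraries were rescaled to the same sum. DTYMK, the kinase of dTMP, had 208, 232, 207 and 207 FPKM, with its highest value in the vector line with Dox.

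Many of these genes are known to follow S phase, so proliferation genes were read beside them. The 15 S phase genes on the list had a median log2 change of 0.09 in the MYC line, from -0.29 for MCM5 to 0.75 for UNG, and the 8 mitosis genes had a median of 0.17. UNG, which removes uracil from DNA, was the only gene of both lists past 1.5-fold, at 33.6 and 56.7 FPKM in the MYC line without and with Dox. A rise of that size was seen in 5.90% of all genes. The summed level of the S phase list was 1043, 1034, 1085 and 1095 FPKM, and its part in the values of RRM1, RRM2 and TK1 was not tested.

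**Figure D3:**
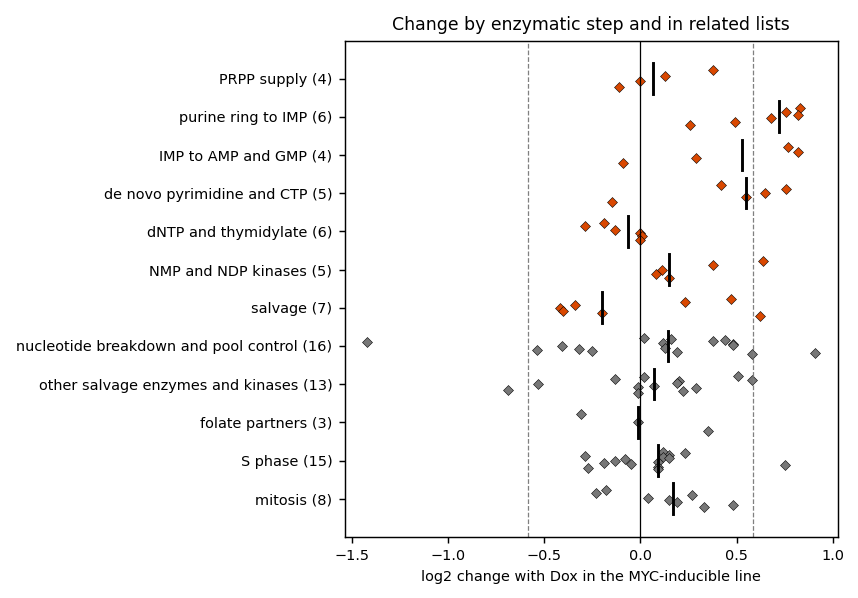
Log2 change with Dox in the MYC line (x axis) for every member by step (orange) and for related lists (grey, genes averaging 1 FPKM or more, number in brackets); black bars are medians and dashed lines mark 1.5-fold. The purine ring, GMP and AMP branch and pyrimidine steps have medians of 0.72, 0.53 and 0.55, and the deoxynucleotide and salvage steps have -0.06 and -0.20, the latter becoming 0.02 with a minimum mean of 5 FPKM.

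Among the nucleotide kinases, the nucleoside diphosphate kinases NME1 and NME2 were the most abundant members of all. NME1 had 446, 429, 439 and 686 FPKM, a log2 change of 0.64 (counting error 0.0145). NME2 had 1243, 1206, 1321 and 1722 FPKM, a log2 change of 0.38, and the ratio of NME1 to NME2 was 0.332 to 0.359 in the other 3 libraries and 0.398 in the MYC line with Dox. Both genes share exons with the read-through transcript NME1-NME2, listed at 10.7 and 13.9 FPKM in the MYC line, and they encode closely similar proteins, so the split of fragments between them is uncertain. NME4, the mitochondrial family member, had 251, 239, 251 and 271 FPKM, a log2 change of 0.11.

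The monophosphate kinases moved less. CMPK1, which phosphorylates UMP and CMP, had 50.3, 46.4, 53.0 and 55.9 FPKM, a log2 change of 0.08. GUK1, the guanylate kinase, had 236, 264, 213 and 237 FPKM. It was higher with Dox by 0.15 in the MYC line and by 0.16 in the vector line, and its value in the MYC line with Dox was below that in the vector line with Dox (-0.16 on the log2 scale). Over the 5 kinases the median was 0.15.

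Salvage enzymes divided in direction, with a median of -0.20 over 7 genes, of which 3 were higher and 4 lower with Dox in the MYC line. The sign of that median is not stable, since it was 0.02 with a minimum mean of 5 FPKM and the mean of the 7 changes was 0.00. UCK2, the uridine-cytidine kinase, had 14.8, 14.9, 14.8 and 22.8 FPKM. Its values in the other 3 libraries lay within a log2 range of 0.01 and it rose by 0.62, past 1.5-fold on all scalings but the rescaling to the same sum. HPRT1, which reclaims hypoxanthine and guanine, had 54.5, 50.2, 55.5 and 77.1 FPKM, a log2 change of 0.47 beside -0.12 in the vector line. APRT, which reclaims adenine, had 234, 236, 226 and 265 FPKM, a log2 change of 0.23.

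The deoxynucleoside kinases among the members, TK1, TK2 and DCK, were lower. DGUOK, a deoxynucleoside kinase on the list of other salvage enzymes, was not, at 82.5, 83.7, 80.4 and 81.4 FPKM. Its log2 change was 0.02. TK1, the cytosolic thymidine kinase of S phase, had 102, 106, 100 and 79.1 FPKM, a log2 change of -0.34 (counting error 0.0283). TK2, its mitochondrial counterpart, had 3.22, 3.13, 3.48 and 2.58 FPKM, a log2 change of -0.42 (counting error 0.0844). DCK, the deoxycytidine kinase, had 13.8, 13.3, 14.6 and 11.0 FPKM, a log2 change of -0.40, and among the 6 members with an E-box in a promoter window it was the only lower one. UCK1, the paralog of UCK2, had 43.8, 46.3, 44.4 and 38.8 FPKM, a log2 change of -0.20. None of TK1, TK2, DCK and UCK1 passed 1.5-fold, while each was below all 3 other libraries by more than their range. The ratio of UCK2 to UCK1 was 0.322 to 0.338 in the other 3 libraries and 0.589 in the MYC line with Dox, a log2 change of 0.82, whereas the ratio of TK1 to TK2 was 28.8 to 33.9 in the 4 libraries.

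**Figure D4:**
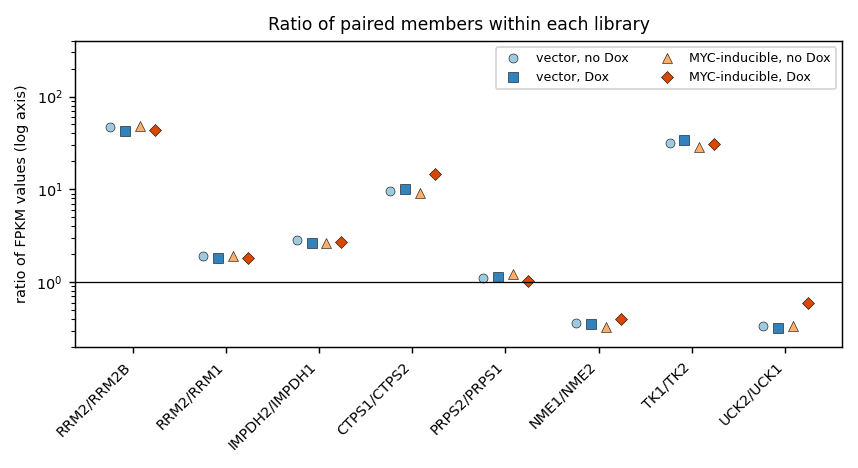
Ratio of FPKM values of paired members within each library, on a log axis with a line at 1. CTPS1 to CTPS2 and UCK2 to UCK1 stand apart in the MYC library with Dox, at 14.8 and 0.589, and IMPDH2 to IMPDH1 and RRM2 to RRM1 stay together.

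Other genes of nucleotide metabolism were read from lists. Of 26 genes of nucleotide breakdown and pool control, 16 averaged 1 FPKM or more, 1 rose and 1 fell at least 1.5-fold, and the median was 0.15. Among all genes 5.90% rose and 8.85% fell as much, so these counts are near the shares of all genes. DCTPP1, which hydrolyses dCTP and modified relatives, rose from 103 to 194 FPKM in the MYC line, a log2 change of 0.91, and had 106 and 114 FPKM in the vector line. NT5E, the ecto-nucleotidase that releases adenosine from AMP outside the cell, fell from 56.0 to 20.8 FPKM, a log2 change of -1.42, and had 53.0 and 53.4 FPKM in the vector line.

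Of 17 other salvage enzymes and kinases, 13 were tested and CMPK2 alone passed 1.5-fold, falling from 3.31 to 2.02 FPKM with a log2 change of -0.69 (counting error 0.115). A fall of that size was seen in 8.85% of all genes. Of the 7 nucleoside transporters, 2 reached a mean of 1 FPKM. SLC29A1, the main equilibrative transporter of the plasma membrane, had 27.8, 27.7, 27.4 and 52.0 FPKM, a log2 change of 0.92. SLC29A3 had 1.14, 0.843, 0.875 and 1.54 FPKM, a log2 change of 0.75 (counting error 0.20), and it reached that mean only through its high value in the MYC line with Dox, so its rise is not counted as a result. The folate enzymes SHMT1 and MTHFD1, which supply carbon units for thymidylate and purine synthesis, had log2 changes of -0.01 and 0.35.

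The annotation places exons of another gene over 16 of the 37 members, for 9 of them on the same strand, and whether the counting used strand is not given in the sources used here. Reads could be shared for UCK2 with TMCO1 (24.1 and 20.8 FPKM in the MYC line without and with Dox), for TYMS with ENOSF1 (22.5 and 24.5 FPKM), for UCK1 with POMT1 (8.11 and 7.71 FPKM) and for DCK with MOB1B (6.26 and 5.06 FPKM). PRPSAP1 could share reads with SPHK1 on the opposite strand, at 49.3 and 75.2 FPKM in the same 2 libraries. SPHK1 changed by 0.61 on the log2 scale, and its part in the PRPSAP1 values was not tested. The overlap for PPAT and IMPDH2 is with genes that the annotation gives by identifier alone, which have no value here.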

How the data were processed

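RNA-Seq was measured in 4 libraries, 1 for each condition. Values were deposited by the authors as FPKM under gene symbols, and the submitters' processing notes name TopHat2 2.0.14, Cufflinks and hg19 (GRCh37), whereas the annotation and options are not given in the sources used here. Of 27032 rows, 1 had no symbol and was dropped, and rows were summed for 609 symbols listed more than once. Changes were differences of log2(FPKM + 0.1) over genes averaging 1 FPKM or more, counted at 1.5-fold. FPKM values are not counts, so no count model was fitted, and no test of conditions was possible. Depth was estimated from 61 to 75 genes per library with a lone annotated transcript of at least 1500 bases, at under 0.2 FPKM, whose value corresponded to 1 fragment. Approximate fragments, and counting errors, used the canonical transcript length in GENCODE release 44 on GRCh37. The calculation was tried on simulated libraries with 2-fold changes, the same transcript length for every gene and random sampling of fragments. Smaller folds and variation among cultures were not simulated. All 37 members are named, and of the related lists the genes past 1.5-fold in the MYC line. Further genes (MCM5, DGUOK, SHMT1, MTHFD1, PNP, SAMHD1 and CDA) were named after their values were seen. The members and lists were chosen with earlier results of these data known. Comparisons with the range and order of the other 3 libraries, and the E-box count by called member, were added after the data were seen. Alternatives covered the pseudocount, the filter, 3 other scalings, repeated symbols, the fold, the mean and the reference library. Calculations used pandas 2.3.3 and numpy 2.4.6 under Python 3.11.15, and figures matplotlib 3.10.9.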

Additional observations from a re-analysis of the deposited data

Results flagged for a closer look

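For 6 members the change in the MYC line exceeded that in the vector line by at least 1.5-fold and had the opposite sign there. They are among the 12 members past that difference (32.4%, beside 5.85% of all genes). The share of all genes that also had opposite signs was not counted. The difference of log2 changes was 0.89 for PPAT, 0.74 for PAICS, 0.70 for NME1, 0.65 for UMPS, 0.61 for CTPS1 and 0.59 for HPRT1. In the vector line the changes themselves were small, at -0.06 for PPAT, PAICS, CTPS1 and NME1, -0.12 for HPRT1 and 0.00 for UMPS after rounding. The robust SD of the vector line's changes over all genes was 0.11, so the sign of such small changes carries little weight. Each line had 1 library with and 1 without Dox, so none of these differences was tested.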

How the results depend on the processing

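No paired analysis was possible because there is just 1 library in a condition. Among 207 recalculated counts and medians, 200 moved by at most 1.5 times (counts) or by less than 0.11, the robust SD of the vector line's changes over all genes (medians), and 7 moved further. Part of the 200 could not move. Every member is on 1 row and passes the filter, so dropping the filter or taking the largest row left all values unchanged. Counts of 0 at 1.5-fold also had to stay 0 at 2-fold. At 2-fold, 0 members rose in the MYC line and 0 relative to the vector line, in place of 10 and 12. A minimum mean of 5 FPKM drops genes such as TK2, and then the salvage median was 0.02, and as a mean over the step it was 0.00. The mean was 0.27 for the NMP and NDP kinases. Against the vector line with Dox the median was 0.19 for PRPP supply and 0.27 for the NMP and NDP kinases. For the kinases and PRPP supply the cause was not tested. After rescaling to the same sum, which moves the median of all genes to -0.07, 9 members rose in the MYC line in place of 10, and 8 in place of 12 relative to the vector line. Of 259 recalculated changes of single members, 14 moved by more than 0.11, all of them against the vector line with Dox, and the 10 members that rose stayed between 0.56 and 0.90. The 259 include those with the largest row, which could not move. Depth limits RRM2B, CTPS2 and TK2 most, with counting errors of 0.0810 to 0.0844.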

Other observations

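PNP, the purine nucleoside phosphorylase that splits inosine and guanosine for salvage, was listed at 0, 0.0352, 0.00977 and 0.0105 FPKM in the vector line without and with Dox and the MYC line without and with Dox. Whether these PNP values are working estimates was not tested. The 3 genes given here were singled out after their values were seen. SAMHD1, which degrades deoxynucleotide triphosphates, had 0.407, 0.558, 0.487 and 0.670 FPKM, below the minimum mean of 1 FPKM. CDA, the cytidine deaminase, had 0.151, 0.135, 0.0844 and 0 FPKM, also below it.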
